A study of Homo sapiens with 8 samples.

Results

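The 8 genes described here, JCHAIN, MZB1, IRF4, PRDM1, SDC1, CD38, FKBP11 and ELL2, belong to the plasma cell and antibody secretion program. They were taken by name from a list, and each was read from a probe set that the platform annotation pairs with its symbol alone, the one with the highest mean over 8 arrays where a gene had several. All 8 were found among 17958 genes measured by such probe sets. RNA of 2 established human lymphoma lines was hybridised to whole-transcript Affymetrix arrays, and values are log2 signals as deposited. KMH2 cells treated with glucosamine for 24 h (3 arrays) and Ramos cells (2 arrays) were each set against untreated KMH2 cells (3 arrays). KMH2 derives from Hodgkin lymphoma, whose tumour cells are B cells that have lost most B-cell gene expression, and Ramos from Burkitt lymphoma, a tumour of germinal centre B cells. Glucosamine is an amino sugar that enters the hexosamine pathway; the sources used here give no dose. Titles name both Ramos arrays as control, whereas the design text puts 1 of them after glucosamine, so Ramos stands for a cell line only and no treatment was assigned. Each line is a single established culture line, and all groups share the same growth medium.

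When a B cell becomes a plasma cell, the transcription factors IRF4 and Blimp-1 (the product of PRDM1) silence the mature B-cell program, and XBP1 enlarges the endoplasmic reticulum (ER). ELL2, an elongation factor, favours the secreted form of immunoglobulin heavy chain RNA, while MZB1 and FKBP11 work in the ER and JCHAIN links antibody units into polymers. CD38 and SDC1 (CD138) are the surface proteins by which plasma cells are commonly recognised.

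RefSeq promoter windows (GRCh38.p14, 250 bases before to 50 after a transcription start) were held for 7 of the 8 genes. Printed are 4 of them, chosen after values were seen. FKBP11 (second of its windows, chr12:48924939-48925238, minus strand) and IRF4 (chr6:391502-391801, plus strand) were the genes called after glucosamine. JCHAIN (chr4:70666459-70666758, minus strand) had the largest difference of the 8 genes between the lines, and MZB1 (chr5:139389864-139390163, minus strand) held a motif match. Capitals mark motif matches.
FKBP11: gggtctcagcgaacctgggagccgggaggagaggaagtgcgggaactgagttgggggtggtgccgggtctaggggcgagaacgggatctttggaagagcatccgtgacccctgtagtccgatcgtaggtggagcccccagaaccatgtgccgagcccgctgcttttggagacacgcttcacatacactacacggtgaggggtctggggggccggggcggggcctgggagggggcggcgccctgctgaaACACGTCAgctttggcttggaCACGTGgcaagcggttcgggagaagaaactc
IRF4: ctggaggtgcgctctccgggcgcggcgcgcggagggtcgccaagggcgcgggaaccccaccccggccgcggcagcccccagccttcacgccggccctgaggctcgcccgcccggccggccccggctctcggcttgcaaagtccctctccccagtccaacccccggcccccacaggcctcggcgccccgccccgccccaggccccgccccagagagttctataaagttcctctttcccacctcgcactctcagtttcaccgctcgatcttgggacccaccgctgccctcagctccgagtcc
JCHAIN: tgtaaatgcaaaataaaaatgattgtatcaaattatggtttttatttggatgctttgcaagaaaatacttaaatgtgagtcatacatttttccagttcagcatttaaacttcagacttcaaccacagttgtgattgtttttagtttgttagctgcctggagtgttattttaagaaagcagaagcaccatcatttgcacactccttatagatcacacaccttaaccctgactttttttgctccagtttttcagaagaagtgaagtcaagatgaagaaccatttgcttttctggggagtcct
MZB1: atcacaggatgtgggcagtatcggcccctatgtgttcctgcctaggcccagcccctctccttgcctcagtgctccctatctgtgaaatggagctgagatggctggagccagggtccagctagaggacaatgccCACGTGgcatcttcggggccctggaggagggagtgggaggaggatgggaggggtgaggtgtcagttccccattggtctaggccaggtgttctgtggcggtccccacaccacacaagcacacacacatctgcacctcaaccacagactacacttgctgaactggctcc

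The motifs searched, on both strands, were the ER stress element (CCAAT, any 9 bases, CCACG), the unfolded protein response element core TGACGTGN, the ATF4 C/EBP element TGATGNAAN, an interferon response-like pair (GAAA, any 2 bases, GAAA), the octamer ATGCAAAT and the E-box CACGTG, of which the element core can overlap the E-box by some letters. In the FKBP11 window the core was matched on the opposite strand as ACACGTCA, bases 249 to 256 of the window, across the transcription start, and an E-box lay at bases 270 to 275, with no overlap between them. The core occurred in 1.96% of all 35116 windows. MZB1 held an E-box at bases 134 to 139, a motif found in 7.26% of windows. The windows of JCHAIN, IRF4, PRDM1, SDC1 and CD38 and the other FKBP11 window held none of the 6 motifs. For comparison, the windows of XBP1, HSPA5 (the ER chaperone BiP) and BCL6 were searched too. The ER stress element, present in 0.0769% of windows, was matched in the first XBP1 window and in that of HSPA5. The first BCL6 window held the ATF4 C/EBP element at bases 274 to 282, a motif found in 3.61% of windows. The other XBP1 and BCL6 windows held none of the 6 motifs. The windows also differed in base composition, with 34.3% G or C in JCHAIN and 74.0% in IRF4, beside a median of 58.7% over all windows. A match of letters is a description and does not show that a factor binds there.

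Arrays were on a common scale, with medians between 5.62 and 5.68. The replicate 1 arrays of the KMH2 groups deviated together from their group means (correlation 0.457 over probe sets); without them 2 of the 8 genes were still called after glucosamine, FKBP11 (0.52) and IRF4 (-0.32). The defining markers of the Ramos B-cell list, such as MS4A1 (CD20) and CD79A, were higher in Ramos than in KMH2 control for 7 of 7 measured genes. Of 5 Hodgkin markers, 4 were lower in Ramos, among them TNFRSF8 (CD30), and after glucosamine 3 fell in KMH2 (TNFRSF8, CCL17 and GATA3). Over all probe sets tested, 22.7% were called higher and 21.2% lower in Ramos, and 13.9% were called lower after glucosamine. KMH2 control cells also had signal above the median of all values, 5.66, for some markers of other lineages. These were CD3D (8.19), CD3G (7.92), CD14 (7.37), CSF1R (7.29), ITGAM (7.39) and the fibroblast marker COL1A1 (6.59). The other T and NK cell, myeloid, fibroblast and erythroid markers measured lay under that median. Among them were CD3E (4.17), CD2 (4.65), NKG7 (5.24), GNLY (4.83), CD8A (5.18) and LYZ (3.88). The mean signal over 7 T and NK cell markers was 5.67 to 5.75 in KMH2 glucosamine arrays and 5.72 to 5.76 in control arrays. Over 4 myeloid markers it was 6.34 to 6.41 in glucosamine arrays and 6.41 to 6.52 in control arrays, with CD14 falling and CSF1R rising after glucosamine. Their part in the results below was not tested. In bulk RNA, a change in the number of cells that carry a transcript and a change in RNA per cell cannot be told apart.

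In the comparison of Ramos with untreated KMH2, the program was divided between the lines. The antibody assembly genes JCHAIN and MZB1, the ER isomerase FKBP11 and the ectoenzyme CD38 were higher in Ramos, while the regulators IRF4 and PRDM1 and the elongation factor ELL2 were lower. SDC1 did not pass the test. Thus 7 of 8 genes were called (limma, adjusted p under 0.05), 4 higher and 3 lower, against 43.8% of all 19181 probe sets tested, of which 22.7% were higher and 21.2% lower. The median difference over the 8 genes was 0.67, beside 0.06 over all probe sets.

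**Figure D1:**
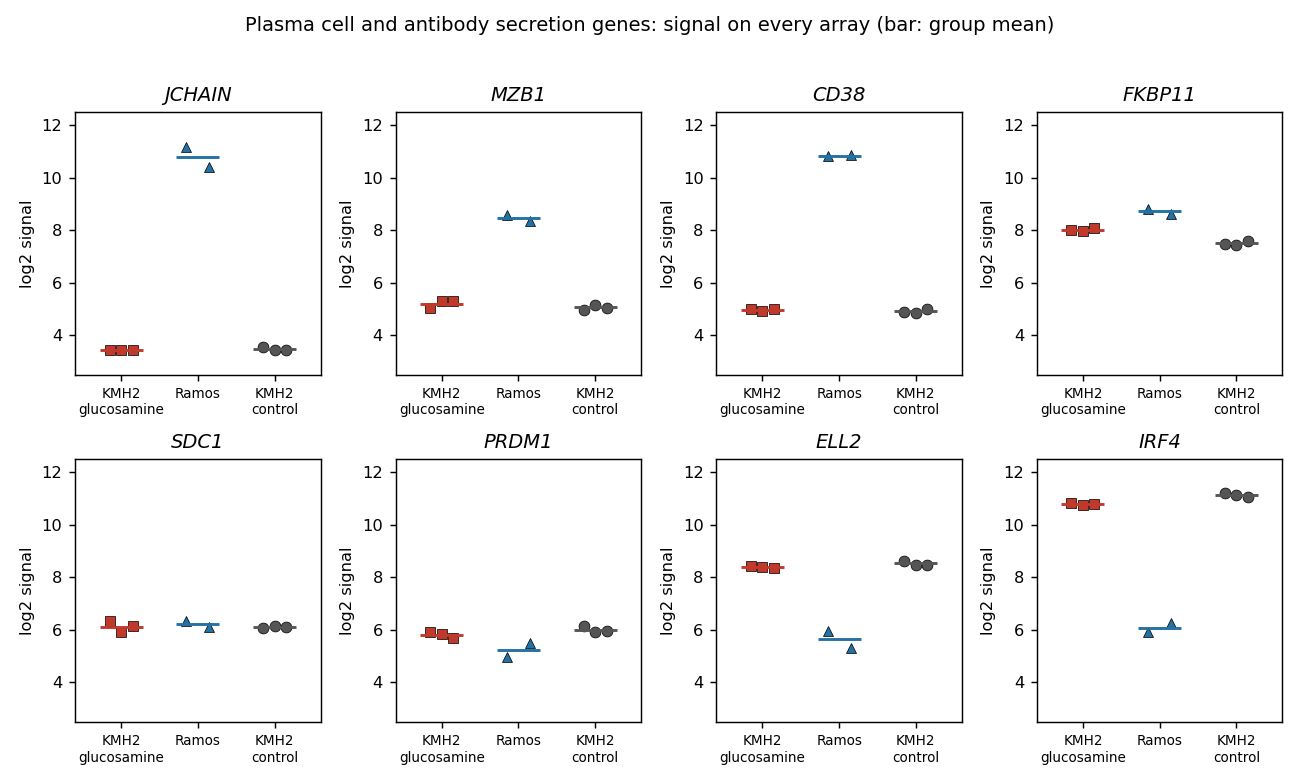
Log2 signal (y axis) of each of the 8 genes on every array, grouped as KMH2 glucosamine (squares, 3 arrays), Ramos (triangles, 2 arrays) and KMH2 control (circles, 3 arrays), with bars at group means. JCHAIN, MZB1, CD38 and FKBP11 lie highest in Ramos, PRDM1, ELL2 and IRF4 lowest there, and the SDC1 points of all groups lie between 5.92 and 6.35.

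Among the regulators, IRF4 had the widest gap. Its signal was 5.93 and 6.25 in Ramos, against 11.23, 11.13 and 11.05 in KMH2 control, a difference of -5.05 ± 0.10 (SE), or 33.1-fold lower (limma adjusted p = 4.55e-09). Both Ramos arrays lay far below all 6 KMH2 arrays. PRDM1, the repressor gene, was read at 4.98 and 5.51 in Ramos, against 6.16, 5.91 and 5.95 in KMH2 control, a difference of -0.76 ± 0.16 (SE, limma adjusted p = 0.00432). The Ramos arrays were lower without overlap but differed from each other, and the difference was -0.49 without Ramos replicate 1 and -1.03 without Ramos replicate 2, called in both cases. PRDM1 signals in Ramos were under the median of all values, where background makes up an unknown part.

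ELL2 followed the regulators. It had 5.95 and 5.33 in Ramos, against 8.64, 8.48 and 8.48 in KMH2 control, a difference of -2.89 ± 0.16 (SE, 7.42-fold lower, limma adjusted p = 1.85e-06). ELL2 alone of the 8 genes had another probe set that the annotation pairs with its symbol alone, 7921344. Whether that probe set reads only ELL2 RNA was not checked here. On it the gap was wider, with 2.86 and 2.93 in Ramos against 7.78, 7.74 and 7.80 in KMH2 control. That probe set gave a difference of -4.88 ± 0.07 (SE, limma adjusted p = 1.08e-09). The direction was the same on both probe sets. Signals of 2.86 and 2.93 lie near the lowest value on the arrays, 1.94, and the main probe set in Ramos averaged just under the median of all values, so neither size is exact.

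The genes of antibody assembly ran the other way. JCHAIN was read at 11.17 and 10.41 in Ramos, against 3.54, 3.44 and 3.45 in KMH2 control, a difference of 7.31 ± 0.18 (SE), or 159-fold (limma adjusted p = 1.47e-08). In KMH2 its signal was near the low end of the array scale, where background shrinks folds, and the Ramos arrays themselves were 0.76 apart. MZB1, an ER protein that helps assemble IgM, had 8.59 and 8.37 in Ramos, against 4.98, 5.15 and 5.06 in KMH2 control (difference 3.42 ± 0.11, SE, 10.7-fold, limma adjusted p = 6.19e-08). Both Ramos arrays exceeded every KMH2 array, and the KMH2 signals again lay under the median of all values.

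FKBP11 encodes a prolyl isomerase of the ER that is abundant in secretory cells. It was present in both lines, at 8.82 and 8.61 in Ramos, against 7.46, 7.45 and 7.59 in KMH2 control (difference 1.22 ± 0.09, SE, 2.32-fold, limma adjusted p = 9.37e-06). The Ramos arrays were also above the 3 glucosamine arrays. Of the surface proteins, CD38, which degrades NAD and is high on germinal centre B cells as well as plasma cells, was read at 10.82 and 10.85 in Ramos, against 4.89, 4.86 and 4.99 in KMH2 control (difference 5.92 ± 0.07, SE, 60.6-fold, limma adjusted p = 9.10e-10), with the KMH2 signals under the median of all values. SDC1, a heparan sulfate proteoglycan, had 6.35 and 6.11 in Ramos, against 6.08, 6.16 and 6.11 in KMH2 control, and the groups overlapped. Its difference was 0.11, with a 95% confidence interval from -0.17 to 0.40 (limma adjusted p = 0.493).

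Glucosamine moved the same genes much less. FKBP11 rose and IRF4 fell in KMH2, and the other 6 genes did not pass the test. The 2 calls, 1 higher and 1 lower, stand beside 25.8% of all probe sets called in this comparison, 11.9% higher and 13.9% lower, so the share of these genes was close to that of the array. Their median difference was -0.02, beside 0.01 over all probe sets.

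**Figure D2:**
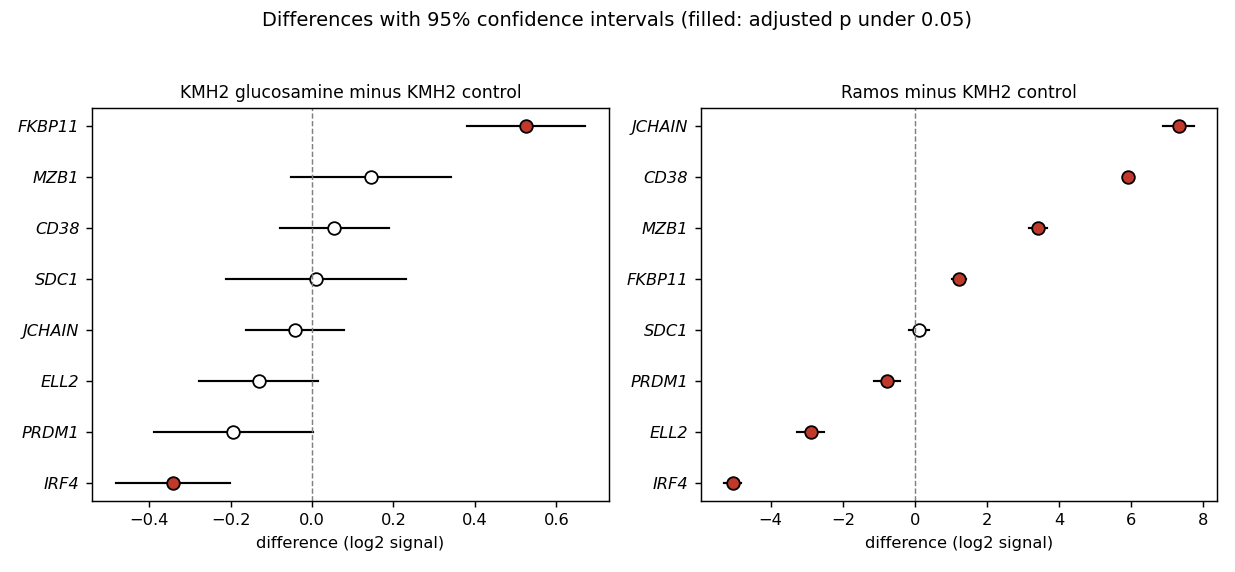
Difference in log2 signal (x axis) of each of the 8 genes, for KMH2 glucosamine minus KMH2 control (left) and Ramos minus KMH2 control (right), with limma's 95% confidence intervals as lines and filled circles where the adjusted p was under 0.05. The 2 panels share the KMH2 control arrays and have different scales: differences ran from -0.34 (IRF4) to 0.53 (FKBP11) after glucosamine and from -5.05 (IRF4) to 7.31 (JCHAIN) in Ramos.

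FKBP11 was read at 8.00, 7.97 and 8.11 after glucosamine, against 7.46, 7.45 and 7.59 in control cells. All 3 treated arrays lay above all control arrays, and the difference was 0.53 ± 0.06 (SE, 1.44-fold, limma adjusted p = 0.000681). Between arrays of the same replicate number it was 0.54, 0.52 and 0.52. The call held in each of the 15 other settings tried, with adjusted p between 0.000130 and 0.00723, and without both replicate 1 arrays the difference was 0.52. The FKBP11 window printed above held the unfolded protein response core, and the other FKBP11 window did not. Any part of that element in this rise was not tested.

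IRF4 had 10.84, 10.76 and 10.79 after glucosamine, against 11.23, 11.13 and 11.05 in control cells. The treated arrays were all lower, with differences of -0.39, -0.37 and -0.27 between arrays of the same replicate number. The difference was -0.34 ± 0.06 (SE, 1.27-fold lower, limma adjusted p = 0.00445), so the signal stayed high on the array after treatment. The call was lost when the spread was estimated from all 8 arrays (adjusted p = 0.0502), over a range of 0.000600 to 0.0502 across its 15 other settings.

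PRDM1 and ELL2 had lower group means after glucosamine without passing the test. PRDM1 was read at 5.92, 5.83 and 5.69 after glucosamine, against 6.16, 5.91 and 5.95 in control cells, and the groups overlapped by 1 array. Its difference was -0.19 ± 0.09 (SE, limma adjusted p = 0.144), and with the replicate number as a block the adjusted p was 0.0470. ELL2 had 8.44, 8.40 and 8.35 after glucosamine, against 8.64, 8.48 and 8.48 in control cells, with no overlap and a difference of -0.13 ± 0.06 (SE, limma adjusted p = 0.177). Its other probe set gave -0.16 (adjusted p = 0.0820).

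The remaining 4 genes were close to their control values. MZB1 had 5.03, 5.29 and 5.30 after glucosamine, against 4.98, 5.15 and 5.06 in control cells (difference 0.15 ± 0.09, SE, limma adjusted p = 0.268). Glucosamine replicate 1 lay among the control arrays, and without it the difference was 0.23 (adjusted p = 0.0311, over a range of 0.0311 to 0.554 across the other settings). JCHAIN stayed between 3.42 and 3.44 after glucosamine, against 3.44 to 3.54 in control cells, with 95% confidence limits of the difference at -0.16 and 0.08. CD38 had 5.00, 4.91 and 5.00 after glucosamine, against 4.89, 4.86 and 4.99 in control cells, with an interval from -0.08 to 0.19. At such low signals a further fall of JCHAIN or CD38 could hardly be seen. SDC1 was read at 6.32, 5.92 and 6.14 after glucosamine and at 6.08, 6.16 and 6.11 in control cells, with an interval from -0.21 to 0.23 and a wider spread among treated arrays.

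Other genes of plasma cells and secretion were examined as a list of 25, of which 23 had a probe set of their own. The counts of this and the following lists stand beside 25.8% of all probe sets called after glucosamine and 43.8% in Ramos (22.7% higher, 21.2% lower), and no list was tested against the array or against another list. After glucosamine 9 rose, 3 fell and 11 did not pass, with a median difference of 0.13. XBP1 rose by 1.05 ± 0.08 (SE, limma adjusted p = 0.000125), HM13, the signal peptide peptidase, by 0.50, and SSR3, a subunit of the translocon-associated complex, by 0.41. In Ramos against KMH2 control 13 were higher, 6 lower and 4 did not pass (median 0.37). POU2AF1, a B-cell coactivator of octamer factors, was 36.0-fold higher, CD27, a memory and plasma cell receptor, 44.7-fold higher and ZBTB20, a zinc finger factor of plasma cells, 4.92-fold higher, and XBP1 was 2.33-fold higher. Genes of the list that were lower in Ramos included CREB3L2 (-1.26), TENT5C (-2.52) and TNFRSF17, the receptor BCMA (-0.53), which were picked for mention after their values were seen. In KMH2 control POU2AF1 (4.80), CD27 (4.67) and ZBTB20 (4.73) lay under the median of all values, 5.66, as did TENT5C in Ramos (5.20) and TNFRSF17 in both lines. Background makes up an unknown part of such signals, so these folds and those given below for IRF8, MITF, ELL3, SDC2, SDC4, NMNAT3, IRF5, VPREB3 and IGHM, each under that median in 1 of the lines, are those of the deposited values and not exact ratios of RNA.

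Regulators of mature and germinal centre B cells, several of which oppose the plasma cell program, formed another list. Of 15 such genes 2 rose, 6 fell and 7 did not pass after glucosamine (median -0.25). MEF2C fell by 0.78 on the log2 scale, IKZF1 (Ikaros) by 0.55 and BCL6, the germinal centre repressor that opposes PRDM1, by 0.51 (difference -0.51 ± 0.07, SE, limma adjusted p = 0.000993). Against KMH2 control, 10 of the 15 were higher in Ramos, 1 was lower and 4 did not pass (median 0.87). IRF8, a relative of IRF4, was 10.01 ± 0.22 in Ramos and 4.19 ± 0.06 in KMH2 control (SD, n = 2 and 3), 56.7-fold higher on the deposited scale (limma adjusted p = 2.78e-09), whereas IRF4 was lower. BCL6 was 6.91-fold higher and MITF, which restrains IRF4 in mouse B cells, 4.55-fold lower.

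ER folding and degradation genes rose in 15 of 23 cases after glucosamine, 0 fell and 8 did not pass (median 0.29). DNAJB9 rose by 1.23, EDEM1, which directs misfolded glycoproteins to degradation, by 0.82, DNAJC3 by 0.46 and HSPA5 by 0.45. In Ramos 4 of these genes were higher, 9 lower and 10 did not pass (median -0.08), with EDEM1 2.57-fold and the ubiquitin ligase gene SYVN1 1.94-fold higher and the disulfide isomerase gene PDIA4 1.92-fold lower. HSPA5 differed by -0.19 (adjusted p = 0.0923), or by -0.28 without Ramos replicate 2 (adjusted p = 0.0203). FKBP11 has relatives in the ER. Of 5 of these, FKBP14 rose by 0.68 and FKBP2 by 0.46 after glucosamine, 0 fell and 3 did not pass, and in Ramos FKBP10 was 2.70-fold lower while 4 did not pass (3 FKBP genes were called without Ramos replicate 1 and 2 without Ramos replicate 2).

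**Figure D3:**
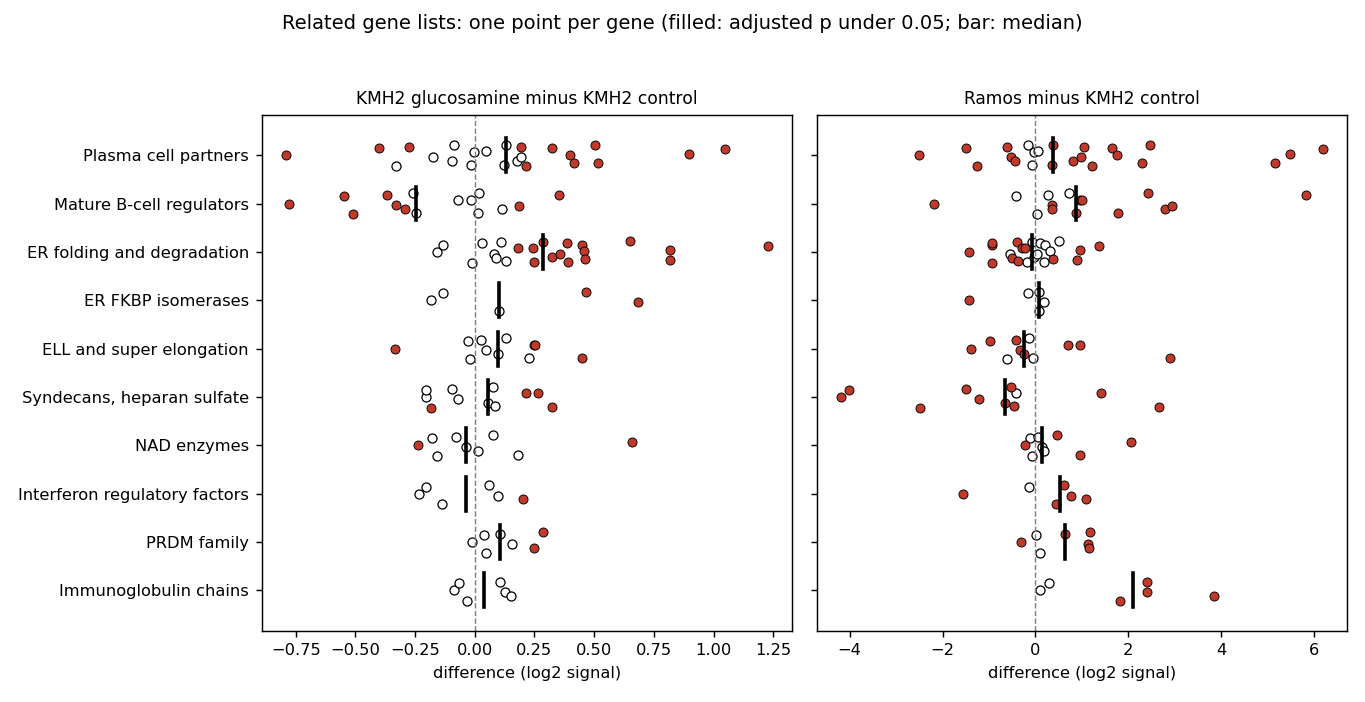
Difference in log2 signal (x axis) of the genes in 10 related lists (rows), for KMH2 glucosamine minus KMH2 control (left) and Ramos minus KMH2 control (right). Each point is a gene, filled where the adjusted p was under 0.05, and bars are list medians. ER folding genes have their median at 0.29 after glucosamine. The immunoglobulin list, which also holds surrogate chains and PIGR, has it at 2.11 in Ramos.

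Genes of immunoglobulin and surrogate chains were listed together with PIGR, a receptor gene. IGHD, IGHG1, IGHA1 and IGLL5 had no probe set of their own. Of 6 measured, 4 were higher in Ramos, as JCHAIN was, and 2 did not pass (median 2.11). The probe sets paired with the immunoglobulin chain genes IGKC and IGHM read 5.33-fold and 5.27-fold higher. Whether these probe sets read only RNA of those genes was not checked here. VPREB3 (14.5-fold) and VPREB1, also called higher, belong to the surrogate chain part of the list. After glucosamine 0 of the 6 passed the adjusted limma test, and 1 had an unadjusted p under 0.05. Partners of ELL2 in transcription elongation went both ways. Of 11, 3 rose, 1 fell and 7 did not pass after glucosamine, with CDK9, the kinase of the elongation factor P-TEFb, up by 0.45, AFF4, the scaffold of the super elongation complex, up by 0.25 and MLLT1 down (-0.33). These 4 of 11 genes compare with 25.8% of all probe sets called. In Ramos 3 were higher and 5 lower. The relative ELL3 was 7.41-fold higher in Ramos, where ELL2 was lower, AFF4 was 1.95-fold and CCNT2 1.62-fold higher. The 5 lower genes were AFF1 (-1.40), MLLT3 (-0.99), MLLT1 (-0.42), ELL (-0.33) and EAF1 (-0.25), named here after their values were seen. AFF1 was read at 6.32 and 8.27 on the Ramos arrays, and its difference was -0.43 without Ramos replicate 1 and -2.37 without Ramos replicate 2, called in both cases. MLLT3 differed by -0.63 and -1.34 in these fits, also called, and EAF1 lost its call without Ramos replicate 1 (-0.18, limma adjusted p = 0.110).

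Other syndecans differed between the lines although SDC1 did not pass. SDC2 was 4.79 ± 0.19 in Ramos and 8.98 ± 0.18 in KMH2 control (SD, n = 2 and 3), 18.2-fold lower (limma adjusted p = 4.84e-08), SDC4 was 16.3-fold lower and EXT1, a polymerase of heparan sulfate, 5.58-fold lower. Of 11 syndecan and heparan sulfate genes 2 were higher in Ramos and 8 lower. After glucosamine 3 rose, among them SDC3 (0.32) and EXT1 (0.26), and 1, B4GALT7, fell (-0.18), so 4 of 11 were called beside 25.8% of all probe sets. Around CD38, 9 genes of NAD use and synthesis were measured. In Ramos NMNAT3 was 4.16-fold, NAMPT 1.96-fold and NADK 1.37-fold higher, and 1 gene was lower. Whether the probe set paired with NAMPT reads only NAMPT RNA was not checked here. After glucosamine SIRT1, an NAD-dependent deacetylase, rose by 0.66 (limma adjusted p = 0.000100) and NMNAT1 fell by 0.24.

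Among 6 other interferon regulatory factors, 4 were higher in Ramos, including IRF2 (1.69-fold) and IRF3 (1.36-fold), and 1, IRF5, was lower (2.96-fold). IRF7 was called after glucosamine (0.20, limma adjusted p = 0.0440). Of 7 PRDM genes 4 were higher in Ramos, including PRDM2 (2.25-fold), PRDM10 (2.24-fold) and PRDM15 (2.20-fold), and 1 was lower, beside the lower PRDM1, against 43.8% of all probe sets called and 22.7% higher. PRDM10 (0.29) and PRDM15 (0.25) rose after glucosamine, 2 of 7 genes, a share close to the 25.8% of all probe sets. Of the genes named here, IRF7 and B4GALT7 lost the call after glucosamine in 5 of 6 fits without 1 array, PRDM10 and PRDM15 in 3, and EXT1 and NMNAT1 in 2, with the highest adjusted p at 0.132 (IRF7), 0.104 (B4GALT7), 0.0611 (PRDM10), 0.0773 (PRDM15), 0.0605 (EXT1) and 0.0659 (NMNAT1).

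The Ramos arrays differed from each other by 0.16 at the median over all probe sets, without regard to sign. Replicate 2 minus replicate 1 was -0.76 for JCHAIN, -0.62 for ELL2, 0.54 for PRDM1 and 0.32 for IRF4. JCHAIN and ELL2 were above 93.8% and 90.3% of all probe sets in the size of this difference. CD38 differed by 0.03. No test is possible between single arrays.

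Over the 8 arrays, the genes whose signal ran most alike were found among 4853 candidates spanning at least 1 log2 unit. They were CENPV for JCHAIN, HEG1 for MZB1, CADPS for CD38, SLC17A5 for FKBP11, MBOAT1 for IRF4, DEXI for PRDM1 and PAK1IP1 for ELL2. Pearson's r ran from 0.984 (DEXI) to 0.9997 (CADPS) over 8 arrays. These values mostly restate the gap between the lines and carry no test. SDC1 spanned less than 1 log2 unit and was not compared.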

How the data were processed

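The authors deposited a log2 signal for each of 33297 probe sets, measured on 8 Affymetrix HuGene-1_1-st-v1 arrays, per the labels' protocols; the unit was read from the values (1.94 to 13.2). The sources used here name no method of background correction, summarization or normalization, and no scanner file was analysed here, so the number of arrays limits precision. Whether replicates of Ramos came from separate cultures was not given; p-values then measure only the spread between these samples. Probe sets with 1 symbol in the platform annotation (19181) were tested with limma 3.58.1 in R 4.3.3, two-sided, with Benjamini-Hochberg adjustment over them and a threshold of 0.05. All adjusted p-values, standard errors and intervals are limma's. Glucosamine was tested on the 6 KMH2 arrays without pairing, Ramos on all 8 arrays in 3 groups. Levels of different probe sets were not compared as RNA amounts. The fits were tested on simulated data. The simulated noise was independent between arrays and had the spread of the KMH2 groups. It did not cover the spread between the Ramos arrays or the shared deviation of same-numbered KMH2 arrays.

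The 8 genes, the related lists and the tests were chosen with earlier results of these data known. Named in the related lists were the 3 genes past the threshold with the smallest p per list and comparison, and XBP1, HSPA5 and BCL6; the likeness rule took the highest Pearson correlation. Same-numbered KMH2 arrays deviated together (correlations 0.457, 0.234 and 0.231). Per the design text the replicas were taken before and after treatment, so the numbers were taken to pair them. This pairing entered the model only in the replicate block, an alternative fit, and the main tests ignored it. Control replicate 2 correlated with glucosamine replicate 3 at 0.252 and control replicate 3 with glucosamine replicate 2 at 0.182, so the values do not separate numbers 2 and 3. Protein features were not analysed here. Alternatives covered pairing, normalization, dim probe sets, probe sets tested, array weights, the variance prior and left-out arrays.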

Additional observations from a re-analysis of the deposited data

How the results depend on the processing

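FKBP11 after glucosamine and all 7 calls of the Ramos comparison were called in every setting tried. After glucosamine the number of the 8 genes called was 1 when all 8 arrays shared the spread (IRF4 lost its call) and 4 with array weights (MZB1 and PRDM1 were added, adjusted p = 0.0465 and 0.0349). Without 1 array at a time it was 2 to 3, and 3 with the replicate block; without both replicate 1 arrays it was 2. Over all probe sets, 2177 were called with the shared spread, 6594 with array weights and 5748 with the replicate block. Without 1 array 3600 to 5304 were called, against 4956 in the main fit. The block added PRDM1 and changed no other call of the 8 genes. Without dim probe sets JCHAIN, MZB1 and CD38 had no value after glucosamine. In the Ramos comparison they passed that filter through Ramos, and PRDM1 and ELL2 through KMH2, so it is no support for these 5 calls. Leaving out a Ramos array leaves a lone array, assumed to vary like the other groups. For Ramos the number called among the 8 genes was 7 throughout, and over all probe sets 7035 to 9349 without 1 array and 7741 with the block, whose numbers do not pair these lines (correlations of -0.0291 to 0.0291). With the shared spread, counts of related genes called after glucosamine were 7 for plasma cell partners, 1 each for the FKBP, elongation, syndecan and NAD lists, and 0 for the interferon regulatory and PRDM lists, and FKBP2, CDK9, AFF4, SDC3, B4GALT7, NMNAT1, IRF7, PRDM10 and PRDM15 lost their calls. Over the settings the counts after glucosamine ran from 7 to 15 for plasma cell partners, 1 to 3 for FKBP, 1 to 6 for elongation, 1 to 5 for syndecan, 1 to 3 for NAD, 0 to 2 for interferon regulatory and 0 to 3 for PRDM genes, and for FKBP genes in Ramos from 1 to 3. Leaving out 1 array gave 1 or 2 syndecan genes (control replicates 2 and 3, glucosamine replicates 2 and 3), 1 NAD gene (control and glucosamine replicate 3), 0 or 1 PRDM genes (control replicates 1, 2 and 3, glucosamine replicate 2) and 0 interferon regulatory genes (control replicates 2 and 3, glucosamine replicate 2). The causes were not tested. Low signals limit what can be said of JCHAIN, MZB1 and CD38 in KMH2.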
